A study of Mus musculus with 2 samples.

Results

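The 8 genes described here belong to the anchorage of basal keratinocytes on the basement membrane and were measured in mouse epidermis after induction of SOX11. They are the laminin alpha chains Lama3 and Lama5, the beta chains Lamb1, Lamb2 and Lamb3, the gamma chain Lamc1, the plakin Dst and the tetraspanin Cd151. Members were taken by gene name in the array files, with every probe of each name. They comprised 8 of the 34820 names and 12 of the 55676 probes tested. Of the 12 probes, 11 were above background, as were 21782 of all probes. A probe counts as above background if, on both arrays, a share of 0.5 or more of its spots carried the scanner software's mark for a signal well above the local background, in 1 channel or in both.

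Control pups were K14-rtTA FVB/N mice, which make the doxycycline-dependent activator rtTA in keratinocytes that use the K14 (keratin) promoter. SOX11 pups were littermates of the same strain that carried, besides K14-rtTA, the transgene TRE-Sox11-FLAG, from which rtTA drives FLAG-tagged SOX11. Both pups of a pair received doxycycline for 12 h and were labelled as P4.5, and RNA came from epidermis that the methods describe as enzymatically separated sheets of back skin. Each of the 2 littermate pairs was hybridised to its own 2-colour array, with the control in Cy3 and the SOX11 pup in Cy5, and values are given below as the log2 of Cy5 over Cy3 for each pair. The dyes ran the same way in both pairs, so that a dye effect on a probe and an effect of SOX11 cannot be told apart. Induction followed the K14 promoter, whereas the RNA came from all layers of the sheet. In such bulk RNA, fewer cells of a type and less RNA per cell cannot be told apart.

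Laminins are trimers of 1 alpha, 1 beta and 1 gamma chain that assemble inside the cell and are secreted into the basement membrane. In skin, a trimer that holds the Lama3 and Lamb3 products forms the anchoring filaments beneath hemidesmosomes, while trimers with the Lama5 and Lamc1 products and a beta chain from Lamb1 or Lamb2 form much of the laminin network. Hemidesmosomes bind laminin through the integrin of the Itga6 and Itgb4 products and through collagen XVII, and the epithelial product of Dst, BPAG1e, ties this complex to keratin filaments together with plectin. CD151 is a tetraspanin that sits beside the laminin-binding integrins in the membrane.

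The transcript that each probe reads matters most for Dst and Cd151, and for these the sequences are shown. Dst gives large cytoskeletal isoforms besides BPAG1e. On mm9, the probe for BPAG1e lay at chr1:34239785-34239844 and is assigned in the files to the Bpag1-e transcript. The early probe for variants a and b spanned chr1:34209337-34211389 on the same strand, 2053 bases for a 60-base probe, so that its letters come from more than 1 genomic block. The late probe, at chr1:34364644-34364703, lay 22388 bases into the transcript record of 1 of these variants, and the early probe 773 bases into that of the other, so that the offsets belong to different records. The strand shown is the one given in the probe column of the files, as 5′ to 3′.
Dst, variants a and b, early probe: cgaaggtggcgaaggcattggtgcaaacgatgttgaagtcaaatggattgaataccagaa
Dst, Bpag1-e probe: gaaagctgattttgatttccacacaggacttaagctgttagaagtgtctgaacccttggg

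Cd151 had a pair of probes on the same transcript, a proximal probe 1078 bases into it at chr7:148656555-148656614 and a distal probe at 1760 bases, at chr7:148657237-148657297. The first 42 bases of the proximal probe are shown because they place it at the end of the coding sequence. Capitals mark the first stop triplet in the frame that starts at the first base, and the rest of this probe and the whole distal probe lie after it.
Cd151, proximal probe, first 42 bases: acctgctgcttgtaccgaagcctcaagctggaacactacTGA

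Cd151 was the only member to pass the test in the reported fit, and both of its probes were higher in SOX11 epidermis. On the proximal probe, the log2 brightness was 6.72 and 6.74 in the controls of pairs 1 and 2 and 7.90 and 7.56 in their SOX11 littermates. Both SOX11 pups stood above both controls, and the controls lay close together. Littermates differed by 1.19 and 0.81 on the log2 scale in the first and second pair, a mean of 1.00 ± 0.264 (SD, n = 2) or 2.00-fold, with an adjusted p of 0.00960 in limma and a 95% interval of 0.64 to 1.36. On the distal probe, the log2 brightness was 11.44 and 11.24 in the controls and 12.30 and 11.84 in the SOX11 pups. The order of the pups was again without overlap. Here the log2 ratio was 0.87 and 0.60, a mean of 0.73 ± 0.189 or 1.66-fold, with an adjusted p of 0.0316 and an interval of 0.38 to 1.08. The proximal ratio exceeded the distal one by 0.32 and 0.21, a difference that did not pass its own limma test (adjusted p = 0.226). Across all genes with several probes above background, 128 of 5423 such differences passed (2.36%).

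Thus 2 of the 12 member probes, both of 1 gene, were higher in SOX11 epidermis at an adjusted p under 0.05 and 0 were lower, against 2.99% and 1.41% of all probes tested and 6.78% and 3.21% of those above background. At an unadjusted p under 0.05, 4 member probes passed in limma, those of Cd151, Lamb1 and the late Dst probe, against 21.1% of all probes and 31.2% of those above background. Of the 12, 0 went past a mean log2 ratio of 1.5 with a passing p, against 0.453% of all probes and 1.16% of those above background. Processed scanner signals, a different scaling, gave 0 calls among the members and among all probes, with 9764 probes and 3 member probes at an unadjusted p under 0.05. Over the 11 probes above background the median of the mean log2 ratios was 0.32, against 0.0388 over all 21782, and it was 0.315 in pair 1 and 0.14 in pair 2. Of the 11, 5 had a positive ratio in both pairs (45.5%, against 41% of all probes above background) and 2 a negative ratio in both (18.2%, against 33.1%). The pairs differed more for the members than is usual, with a median SD of 0.247 against 0.132.

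**Figure D1:**
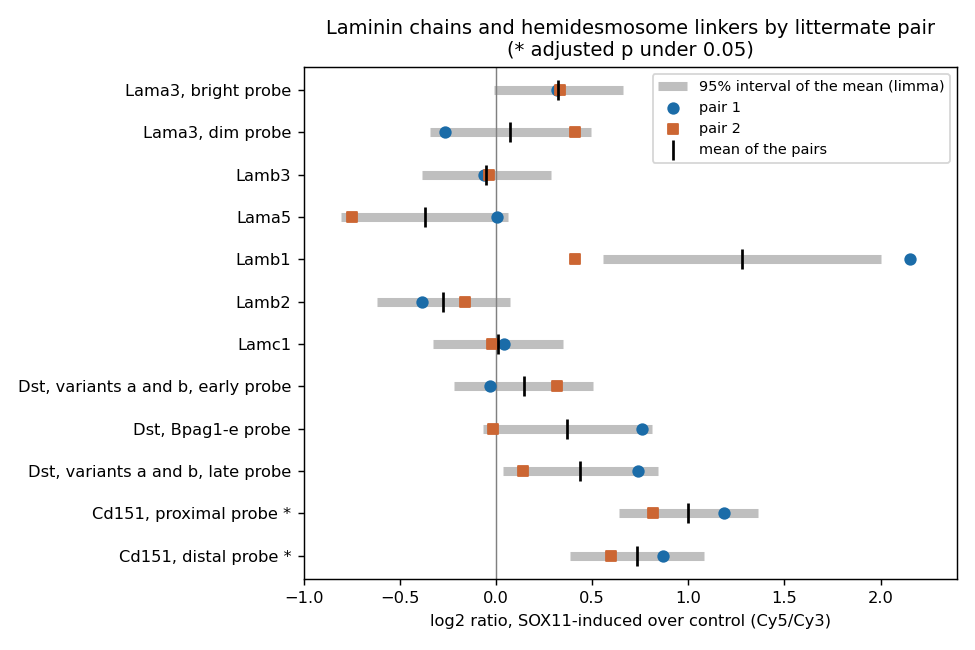
Log2 ratio of SOX11-induced over control epidermis for each of the 12 member probes, with pair 1 as circles, pair 2 as squares, the mean as a vertical bar and the 95% interval of the mean from limma in grey. Both Cd151 probes are marked as passing, at means of 1.00 and 0.73, while the Lamb1 pairs lie far apart at 2.15 and 0.41.

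Among the alpha chains, Lama3 was slightly brighter in SOX11 epidermis in both pairs without passing the test. Its bright probe, 9887 bases into the transcript, had a log2 brightness of 9.28 and 9.21 in the controls and 9.60 and 9.54 in the SOX11 pups. The littermate differences were nearly identical, at 0.315 and 0.331, and the mean of 0.323 ± 0.0113 (1.25-fold) had an adjusted p of 0.253 and an interval of -0.0126 to 0.66. The second Lama3 probe, 10278 bases into the transcript, was too dim to be well above background on any of the channels of both arrays, so its ratios of -0.26 and 0.41 carry no fold. Lama5, the alpha chain of the widespread epidermal laminin network, had a log2 brightness of 11.13 and 11.65 in the controls and 11.13 and 10.90 in the SOX11 pups. The control of pair 2 stood above the other 3 pups. The log2 ratios were 0.0063 and -0.75, a mean of -0.37 ± 0.535 with an adjusted p of 0.309 and an interval of -0.81 to 0.0641.

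Of the beta chains, Lamb3, the partner of Lama3 in the anchoring filaments, was nearly level within each pair. Its log2 brightness was 10.61 and 10.33 in the controls and 10.54 and 10.30 in the SOX11 pups, so that the pairs differed from each other more than the littermates did. The log2 ratios of -0.0631 and -0.0374 gave a mean of -0.0502 ± 0.0182, an adjusted p of 0.884 and an interval of -0.39 to 0.29. Centring each array on its median in place of loess turned this ratio to 0.57 with an adjusted p of 0.0190, under a scaling that moved the median of all probes above background to 0.51.

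Lamb1 had the highest mean of the member probes and the widest spread. Its log2 brightness was 7.88 in the control of pair 1 and 9.17 in that of pair 2, against 10.04 and 9.58 in the SOX11 pups. The control of pair 1 lay well below the other 3 pups. Before normalization the Cy3 brightness above background was 142 on the first array and 408 on the second, whereas the Cy5 brightness was 1314 and 1217. The log2 ratios were 2.15 and 0.41, a mean of 1.28 ± 1.23 or 2.43-fold, with an adjusted p of 0.0587 (unadjusted p = 0.00299) and an interval of 0.56 to 2.00. Pair 2 alone gave 0.41. The interval rests on a spread borrowed from the other probes, and the pairs' own values lie on either side of it.

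Lamb2, the beta chain that replaces the Lamb1 product in some trimers, had a log2 brightness of 9.84 and 9.69 in the controls and 9.45 and 9.52 in the SOX11 pups. Both SOX11 pups were below both controls, by a small margin. The log2 ratios of -0.38 and -0.16 gave a mean of -0.27 ± 0.157, an adjusted p of 0.344 and an interval of -0.62 to 0.0715. Lamc1, the gamma chain shared by the Lamb1 and Lamb2 trimers, had a log2 brightness of 10.04 and 9.97 in the controls and 10.08 and 9.95 in the SOX11 pups. Its log2 ratios were 0.0428 and -0.0238, a mean of 0.0095 ± 0.0471 with an adjusted p of 0.980. The interval was -0.33 to 0.35, and median centring gave 0.62 with an adjusted p of 0.0132. Lama5, Lamb1, Lamb2, Lamb3 and Lamc1 had 1 probe each, so no second probe checks them.

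**Figure D2:**
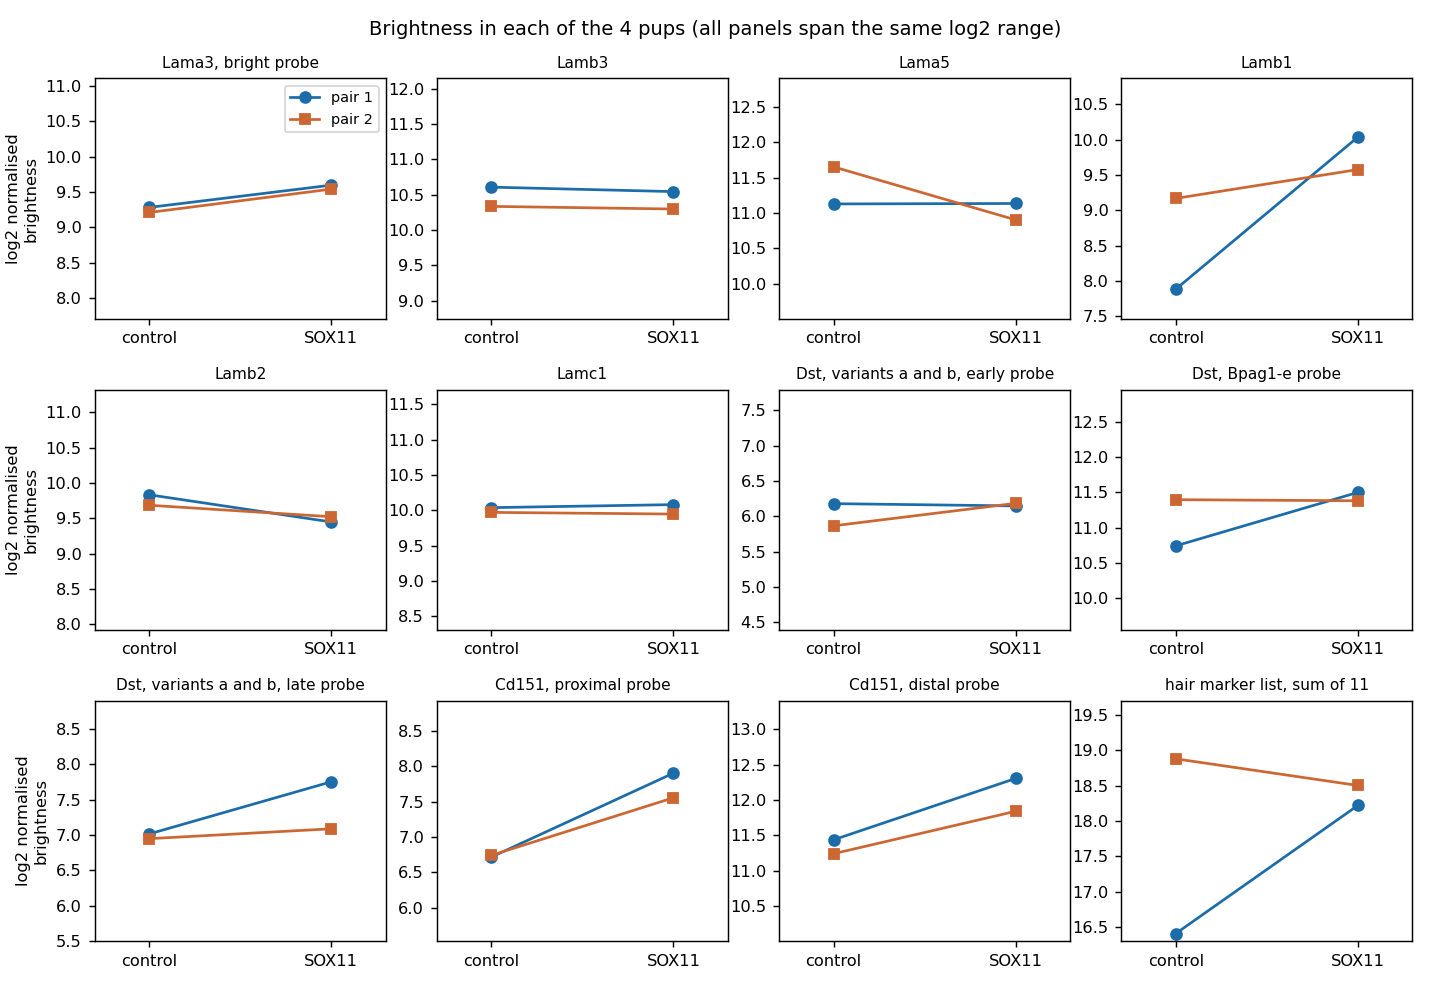
Log2 normalised brightness in the 4 pups for each of the 11 member probes above background and, in the last panel, for the summed hair marker list, with lines joining littermates (circles, pair 1; squares, pair 2) and every panel spanning the same range. Cd151 goes up in both pairs, whereas the Lamb1 line is steep in pair 1, where its control is at 7.88, and shallow in pair 2.

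The Dst probes gave unequal pairs. On the BPAG1e probe shown above, the log2 brightness was 10.74 in the control of pair 1 and 11.39 in that of pair 2, with 11.50 and 11.38 in the SOX11 pups. Only the control of pair 1 departed from the others. The log2 ratios of 0.76 and -0.0151 gave a mean of 0.37 ± 0.546, an adjusted p of 0.315 and an interval of -0.0689 to 0.81. On the late probe of variants a and b, the log2 brightness was 7.01 and 6.95 in the controls and 7.75 and 7.09 in the SOX11 pups, and the SOX11 pup of pair 1 stood apart. Its log2 ratios were 0.74 and 0.14, a mean of 0.44 ± 0.423 with an adjusted p of 0.199. The early probe of these variants was dim, with a Cy3 channel not well above background on the second array. Its log2 brightness was 6.18 and 5.86 in the controls and 6.15 and 6.18 in the SOX11 pups, and its ratios of -0.0322 and 0.32 had a mean of 0.14 ± 0.247 and an adjusted p of 0.654. Set against the BPAG1e probe, the late probe differed by 0.0681 on average (adjusted p = 0.763) and the early probe by -0.23 (adjusted p = 0.629), so no difference between the Dst transcripts passed.

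The control of pair 1 was the lowest pup for Lamb1 and for BPAG1e, and it was also the lowest for hair markers. The summed brightness of 11 genes of hair shaft and root sheath, all above background, was 87006 in that control, 482881 in the control of pair 2, and 305627 and 371831 in the SOX11 pups. As a log2 ratio this sum came to 1.81 for pair 1 and -0.38 for pair 2. The part of hair follicle content in the Lamb1, Dst and Cd151 values was not tested. Basal keratinocyte markers, the cells that make most of the laminin chains and hemidesmosomes named here, were all 5 above background. Their sum was 257685 and 216461 in the controls and 207860 and 140729 in the SOX11 pups, a log2 ratio of -0.31 and -0.62, with Krt15 and Dlk2 passing the test as lower (adjusted p = 0.00573 and 0.000238). The 6 suprabasal markers, all above background, ran the other way at 0.37 and 0.59. The part of these markers in the member values was not tested.

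Cells beneath the epidermis also make laminins. Of 9 dermal fibroblast markers, 5 were above background, and the summed brightness of all 9 was 1782 and 1586 in the controls and 1104 and 1909 in the SOX11 pups. On the log2 scale the sum moved by -0.69 and 0.27. Of the 5, Dcn passed the test as lower (adjusted p = 0.0260). Postn was lower too, at -1.60 in pair 1 and -0.0725 in pair 2, but did not pass (mean -0.83, adjusted p = 0.143). The collagen genes Col1a2, Col3a1 and Col1a1 went the other way on average without passing, with means of 0.49, 0.37 and 0.37. The median over the 5 was 0.37. Pdgfra, Lum, Twist2 and Fbn1 were not well above background anywhere. Of the 6 endothelial markers, 2 were above background, with sums over all 6 from 783 to 846 in the 4 pups, and Cdh5, Tek, Emcn and Cldn5 were not well above background. Of 5 smooth muscle and pericyte markers, 2 were above background, with a log2 ratio of the sum of 0.78 and -0.19. The corresponding ratios were 0.0694 and 0.13 for the Schwann cell list, of whose 5 markers 4 were above background, 0.41 and 0.0719 for the 5 melanocyte markers and -0.35 and -0.29 for the 6 immune markers with a probe, all of them above background. Their part in the member values was not tested.

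Beyond the members, 81 names of their molecular partners were listed, of which 77 had a probe and 64 had a brightest probe above background. With 1 probe per name, the brightest, 8 were higher in SOX11 epidermis and 7 were lower, and over all 34820 names these shares were 3.52% and 1.78%. Among all probes above background, counted by probe and not by name, they were 6.78% and 3.21%.

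The other chains and the core of the hemidesmosome come first, since they complete the structures of the members. None of the 5 laminin chains outside the members that had a probe passed the test in limma. Only 3 of the 5 were above background. Lama2 and Lama4 were not, and Lama1 was not well above background in the controls. An unadjusted p under 0.05 was reached by 2 of the 5, against 21.1% of all probes and 31.2% of those above background. Of 4 hemidesmosome parts, 1 was lower and 0 were higher, against 1.78% and 3.52% of all names. The median of the list was -0.40. Col17a1, which encodes collagen XVII, fell in both pairs, with log2 ratios of -1.32 and -0.88 (mean -1.10 ± 0.311, adjusted p = 0.00669). Plec, the plectin gene, had a mean of -0.39 (adjusted p = 0.198) and Itgb4 a mean of -0.41 (adjusted p = 0.164). Itga6 had discordant probes, with -0.0091 on the brightest (adjusted p = 0.981) and 3.38 on the other (adjusted p = 6.21e-05), so that the gene has no single value here.

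Receptors and matrix partners contained changes in both directions. Of 8 laminin receptors with a probe, Itgb1, the beta subunit that pairs with the alpha subunit of Itga3 beside CD151, rose by a mean of 0.90 (0.97 and 0.83, adjusted p = 0.0119), and its second probe had a mean of 0.51 without passing (adjusted p = 0.0910). Itga3 itself had a mean of -0.67 and an adjusted p of 0.0894, a value looked up after the results were seen. Bcam, a receptor for the Lama5 product, fell in both pairs (mean -1.66 ± 0.218, adjusted p = 0.000583). Of 22 basement membrane partners, 0 were higher and 4 were lower, against 3.52% and 1.78% of all names. The median of the list was -0.0224. Fras1, a component of the complex that holds embryonic epidermis to dermis, had a mean of -1.43 ± 0.773 (adjusted p = 0.0101), and Hspg2, the gene of perlecan, a mean of -1.11 ± 0.488 (adjusted p = 0.0119). The second Hspg2 probe was not above background, so its mean of -0.0098 carries no fold. Npnt, an integrin ligand of the basement membrane, was not well above background in the SOX11 channel on either array and was at least 1.42-fold lower (adjusted p = 0.0135). For this bound the dim channel was set, array by array, to the faintest signal that was still well above background or to its own value where that was higher. The second Npnt probe was not above background and did not pass (mean -0.32, adjusted p = 0.258). The fourth, Frem2, chosen after its values were seen because it completes the count, had a mean of -0.78 (adjusted p = 0.0434).

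The tetraspanin family was examined because Cd151 belongs to it. Of 20 other tetraspanins with a probe, 4 were higher and 1 was lower, against 3.52% and 1.78% of all names. The median of the list was 0.12. Tspan3 rose by log2 ratios of 2.00 and 1.14 (mean 1.57 ± 0.608, adjusted p = 0.00328), Tspan6 of 2.01 and 0.56 (mean 1.28 ± 1.03, adjusted p = 0.0357) and Tspan14 of 0.90 and 0.94 (mean 0.92 ± 0.0259, adjusted p = 0.0101). Tspan12, also named after its values were seen, was not well above background in the controls and was at least 1.37-fold higher (adjusted p = 0.0207). Cd81 was the one that fell, with a mean of -0.62 and an adjusted p of 0.0499. The difference between Cd151 and these genes was not tested.

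A list of 8 genes held proteases that cut laminins and the plasminogen activators Plat and Plau. Of these, 5 were above background, while Plg, the gene of plasminogen, Mmp9 and Tll1 were not. In the list 2 were higher and 0 were lower, against 3.52% and 1.78% of all names. Mmp2, a gelatinase, rose by 1.25 and 1.26 (adjusted p = 0.00202), and Plat, the gene of tissue plasminogen activator, by 1.76 and 0.76 (mean 1.26 ± 0.709, adjusted p = 0.0147). None of the 5 other plakins passed in limma. At an unadjusted p under 0.05 there were 2, against 21.1% of all probes and 31.2% of those above background. Of 5 anchorage adaptors 1 passed, as higher, against 3.52% of all names. This was Ptk2, the gene of focal adhesion kinase, with 1.04 and 0.82 (mean 0.93 ± 0.153, adjusted p = 0.0108). Its second probe had a mean of 0.54 without passing (adjusted p = 0.0787). The remaining Ptk2 probe was not above background and did not pass, so its mean of 0.54 carries no fold.

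**Figure D3:**
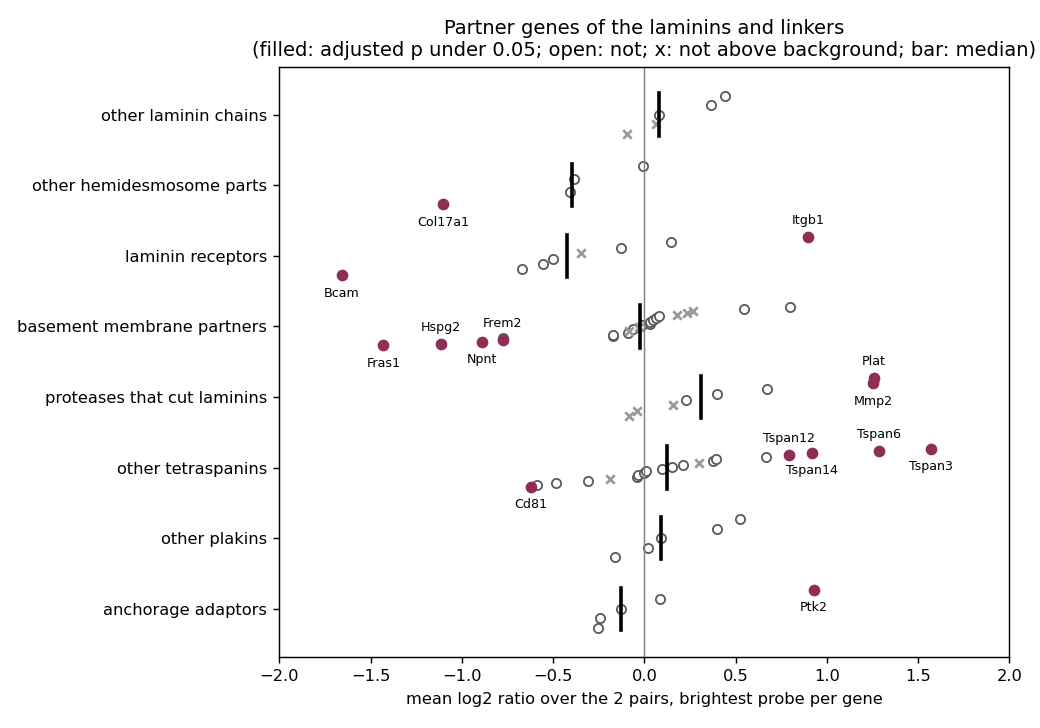
Mean log2 ratio over both pairs for the brightest probe of each of 77 partner genes in 8 lists, filled where the adjusted p is under 0.05, open where not and crossed where not above background, with a bar at the median of each list. Of the filled points, 8 lie to the right and 7 to the left of 0, and those of Npnt and Tspan12 are fitted values of genes dim in 1 channel.

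Upstream sequence was available for 6 of the member genes in RefSeq's table for GRCm38.p6, as 9 windows that start 250 bases before a transcript start. Lama3 and Lamc1 have no entry in it. The 2 windows of Cd151, the gene that passed, are shown up to the base before the start. Each was searched on both strands for ACAAAG and ACAAT, cores of the sequence that SOX proteins bind, and capitals mark a match.
Cd151, chr7:141467112-141467361, plus strand: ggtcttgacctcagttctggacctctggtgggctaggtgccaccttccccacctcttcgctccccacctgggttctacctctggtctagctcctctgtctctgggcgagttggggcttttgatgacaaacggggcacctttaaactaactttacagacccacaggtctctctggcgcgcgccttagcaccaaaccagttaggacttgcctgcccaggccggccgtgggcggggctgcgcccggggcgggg
Cd151, chr7:141468539-141468788, plus strand: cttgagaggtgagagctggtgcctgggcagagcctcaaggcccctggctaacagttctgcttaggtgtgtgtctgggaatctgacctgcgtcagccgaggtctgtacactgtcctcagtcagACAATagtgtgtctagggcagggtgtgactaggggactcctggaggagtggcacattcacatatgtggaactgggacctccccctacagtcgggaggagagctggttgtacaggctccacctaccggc

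The downstream Cd151 window held 1 ACAAT and the upstream one held neither motif. Over the 9 member windows, ACAAT was in 1 and ACAAAG in 1, a Dst window in which it formed part of the longer AACAAAG. In all 32851 windows of the table, 27.7% held ACAAT, 16.5% ACAAAG and 5.03% AACAAAG. These counts describe letters in a short window, and binding of SOX11 was not measured on these arrays.

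The members were recomputed under 7 other ways of processing the arrays. Both Cd151 probes had a positive mean in all 7, from 0.81 to 1.42 for the proximal and from 0.72 to 1.40 for the distal probe, and an adjusted p under 0.05 in 6 of 7 each. The exception was the processed signals, with 1.18 (adjusted p = 0.247) and 0.72 (adjusted p = 0.268). Lamb1 was positive in all 7 and passed in 1, median centring. Lama5, Lamb2 and Lamb3 were negative in 6 of 7 and turned positive under median centring. The median of all probes above background was 0.51 in that setting.

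**Figure D4:**
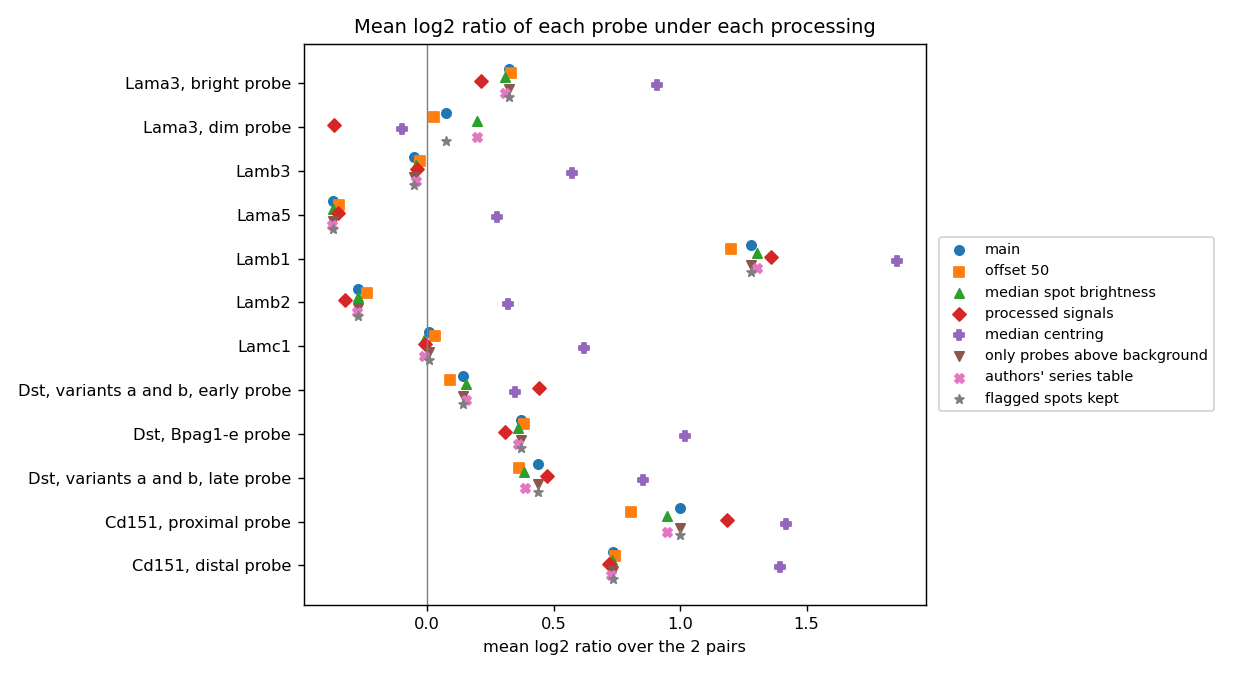
Mean log2 ratio over both pairs for each member probe under the reported processing and 7 alternatives, told apart by colour and marker. Median centring lies to the right of the other settings for all probes except the dim Lama3 probe and the early Dst probe, and the Cd151 probes stay between 0.72 and 1.42 throughout.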

How the data were processed

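The scanner files come, per the file headers, from Agilent Feature Extraction 10.7.3.1 and give probe positions on mm9. The deposited intensity values are spot and background brightness in each channel, without normalization. Processed signals, intensity values that the software corrected and normalized between dyes per the file headers, served as an alternative. The deposited log10 ratio column, made from those signals, entered no comparison. The authors' series table holds log2 ratios without a stated scale. It correlated at 0.99998 with ratios rebuilt from median brightness on both arrays, with column medians of 0.0098 and 0.0047, so its direction is Cy5 over Cy3. The methods name a dye swap that the labels do not show and a ComBat step.

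Mean brightness and median background were corrected by normexp with an offset of 16 and normalized by loess within each array, with control spots at weight 0, in R 4.3.3 with limma 3.58.1. Flagged spots (194 and 186) were left out, and spots of a probe were averaged. Brightness per pup was taken after loess and Aquantile scaling and is not compared between probes. An intercept was fitted to the 2 ratios with eBayes (prior SD 0.223, 8.34 prior degrees of freedom) and Benjamini-Hochberg adjustment over 55676 probes, and the same fit was made to differences between probes of a gene. Each ratio is a littermate difference, so the fit is paired. With 2 arrays, the smallest p of an exact sign-flip test is 0.5, so calls rest on the prior. The fit was also run on simulated data whose spread was drawn from its own prior. There it recovered most of the planted changes but called more unchanged probes than its nominal rate. The simulation held no dye effect, so it cannot tell how such an effect would alter the calls. Both arrays lay on 1 slide. On the arrays, 37.5% and 38.7% of 59305 spots were well above background in Cy3 and 40.6% and 42.6% in Cy5, the number of arrays limits the precision, and the ratios of the pairs correlated at 0.529 across probes. The labels call the arrays biological replicates.

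Members and lists were chosen with earlier results of these data known. From the partner lists, the text names passing genes above background, at most the 3 largest per list and direction, plus Plec, Itga6, Itgb4 and Col17a1, with later choices named as such. Lama3 sequence and 1 further gene that the rule names are not reported here. The count of columns of other samples was 0. Alternatives were an offset of 50, median brightness, processed signals, median centring, only probes above background, the series table, flagged spots kept, the brightest probe per gene and each pair alone.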

Additional observations from a re-analysis of the deposited data

How the results depend on the processing

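No count of calls could be made with 1 pair left out, since a single array leaves no spread, and the fit is the paired one, each ratio being a littermate difference, with no unpaired fit beside it. The number of member probes called higher was 2, and it was 0 with processed signals and 8 with median centring. Member genes called were 1, 0 with processed signals and 6 with median centring, and member probes past a log2 ratio of 1.5 were 0, and 1 with median centring. Partner genes called higher went from 8 to 13 at offset 50, 37 after median centring and 0 with processed signals, and those called lower went from 7 to 13 at offset 50 and 0 with processed signals. The median over member probes above background, 0.32, was 0.85 with median centring, and 0.14 to 0.315 with 1 pair alone. Lamb3 turned to 0.57 with median centring. Less the median of 0.51 that all probes above background had in this setting, the Cd151 probes lay at 0.91 and 0.89 and Lamb1 at 1.35. The other laminin probes lay at 0.40 (bright Lama3 probe), -0.60 (dim Lama3 probe), 0.0671 (Lamb3), 0.11 (Lamc1), -0.23 (Lama5) and -0.18 (Lamb2). For Dst the values were 0.51 (BPAG1e probe), 0.35 (late probe) and -0.16 (early probe). Over all probes, 1662 were higher and 784 lower, against 2850 and 1555 at offset 50, 0 and 0 with processed signals (lowest adjusted p 0.244) and 12123 and 6362 with median centring. The cause of these differences was not tested. Brightness over background limits the dim Lama3 probe and the early Dst probe.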
